A study of Mus musculus with 3 samples.

Results

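The 52 genes described here encode the machinery that shortens, uncaps and destroys mRNA in mammalian cells, together with the proteins that mark single mRNAs for it. They were chosen by gene symbol from 55536 annotated genes, and each symbol was found once as a nuclear gene. They fall into 7 roles: 9 binders of AU-rich elements, 6 genes of the Regnase-Roquin group, 17 deadenylases and their adaptors, 7 decapping factors, 5 exonucleases, 6 factors of nonsense-mediated decay and 2 poly(A)-binding proteins. All libraries came from a single condition. Macrophages grown from bone marrow of C57BL/6J mice were first given Lipid A, the moiety of endotoxin bound by Toll-like receptor 4, at 100 ng/ml for 12 h. The agent was washed out for 12 h, and 100 ng/ml Lipid A was given again for 10 min. Cytosolic RNA was depleted of ribosomal RNA and sequenced from 1 µg per library. The 3 libraries are labelled biological replicates 1, 2 and 3 but share a donor identifier, and no library of untreated or singly treated cells was analysed here. The values are therefore levels after the second dose, not responses to it.

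Most mRNAs are degraded from the tail inwards. Poly(A)-binding proteins coat the tail, the PAN2-PAN3 and CCR4-NOT deadenylases shorten it, and the body is then either uncapped by DCP2 and degraded from the 5′ end by XRN1 or degraded from the 3′ end by the exosome. In macrophages this pathway is known for limiting inflammatory mRNAs: tristetraprolin, the product of Zfp36, binds AU-rich elements in the 3′ UTR of Tnf mRNA and recruits CCR4-NOT, while Regnase-1 and the Roquins act on stem-loops. Nonsense-mediated decay removes mRNAs whose stop codon lies far upstream of an exon junction, and it also acts on some transcripts of genes that encode decay factors.

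The libraries held 32108408, 53165872 and 57117456 expected counts, estimates of the fragments from each gene, in replicates 1, 2 and 3. The 52 genes took 0.477%, 0.474% and 0.474% of them, and the lowest value of any of these genes in a library was 267 expected counts. Levels are given as TPM, an abundance per transcript length scaled to a fixed total. Where a single value stands for a gene it is the mean ± SD of the libraries (n = 3). Nuclear-encoded protein-coding genes took 34.3% of TPM in replicate 1 and 27.8% in each of the others, so TPM ran higher in replicate 1 across genes, and libraries were compared on normalized log2 CPM instead. Replicate 1 also stood apart in 6 of 6 RNAs known to stay in the nucleus, all over 1.5-fold higher there, among them Malat1 with 1333, 118 and 152 TPM in replicates 1, 2 and 3. The widest gap was that of Xist, at 32.6, 0.42 and 0.35 TPM, 71.0-fold on normalized counts. Kcnq1ot1 followed at 46.5-fold and Malat1 at 10.5-fold. The labels do not say whether replicate 1 came from a different animal than the others, and age and sex were not collected, so its differences below cannot be told apart from a difference of source. All 9 macrophage markers reached 10 TPM in every library, and of 16 markers of other cell types 1, Cd4 at 17.2 ± 3.67 TPM, reached 1 TPM in every library while 5 had 0 counts in every library; the summed level of these 16 lay between 15.2 and 21.9 TPM.

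The decay machinery was present almost whole. Of the 52 genes, 51 reached 1 TPM in every library, against 41.4% of 22015 nuclear protein-coding genes, and 25 reached 10 TPM in every library, against 17.3%. The exception was Pan2, at 1.66, 0.88 and 0.83 TPM in replicates 1, 2 and 3. Dis3 reached 1 TPM only with all its transcripts counted. Its transcripts annotated as protein-coding, a choice made after the classes had been seen, had 0.58, 0.55 and 0.81 TPM. Those of Pan2 had 1.20, 0.79 and 0.74. Their median level of 9.86 TPM lay close to the 8.71 TPM of the 9110 protein-coding genes that reached 1 TPM in every library. By role, the median was highest in the pair of poly(A)-binding proteins (106 TPM, from 3.40 and 208.0 TPM), then the AU-rich element binders (18.3 TPM), the deadenylases (11.1 TPM), the exonucleases (9.95 TPM), the nonsense-mediated decay factors (7.44 TPM), the Regnase-Roquin group (7.42 TPM) and the decapping factors (4.52 TPM). Roles of neighbouring rank overlapped widely, since every role with 5 or more genes spanned at least a 2.91-fold range. Levels of mRNA are not levels of protein, and in a bulk lysate fewer cells with an mRNA and less of it per cell cannot be told apart.

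**Figure D1:**
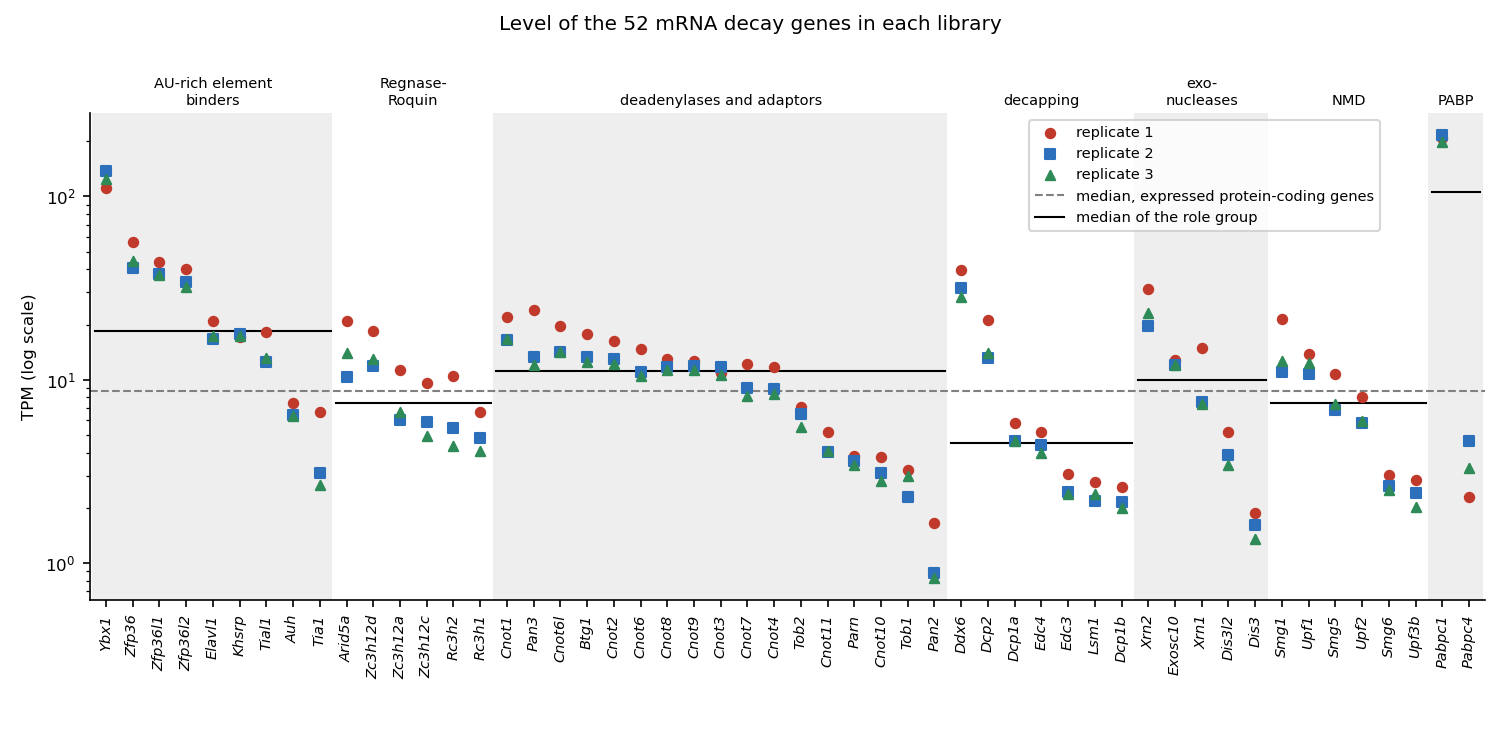
TPM (log axis) of each of the 52 genes in replicates 1 (circles), 2 (squares) and 3 (triangles), by role and by falling mean within a role. Black lines are role medians, the dashed line the median of expressed protein-coding genes at 8.71 TPM; Pabpc1 and Ybx1 lie above 100 TPM in every library and Pan2 lies lowest.

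Among the AU-rich element binders, the 3 tristetraprolin paralogues had mean ratios within 1.32-fold of each other. Zfp36 had 56.3, 40.8 and 44.2 TPM in replicates 1, 2 and 3. Zfp36l1 had 44.0, 37.6 and 37.2 TPM, and Zfp36l2 had 40.4, 34.1 and 32.2 TPM. Zfp36 exceeded both paralogues in every library, by 0.24 ± 0.12 over Zfp36l1 and 0.40 ± 0.12 over Zfp36l2 in log2 TPM; the range of its TPM overlapped that of Zfp36l1 and lay just above that of Zfp36l2. With 3 libraries the smallest two-sided p of an exact sign test is 0.25, so no pair in these data can pass 0.05 by direction alone. Elavl1, whose product HuR binds the same elements and stabilizes mRNAs, was lower than Zfp36 in every library, with 20.9, 16.7 and 17.4 TPM (log2 Zfp36 over Elavl1 1.35 ± 0.07, 2.56-fold). Ybx1, a general mRNA packaging protein, was the highest binder, with 111, 138 and 124 TPM. Khsrp, a binder that recruits decay enzymes, had 17.4 ± 0.395 TPM. Of the stress-granule proteins TIA1 and TIAR, Tial1 was 3.79-fold above Tia1, with 14.6 ± 3.04 against 4.14 ± 2.20 TPM, and Auh, a mitochondrial enzyme that also binds AU-rich RNA, had 6.75 ± 0.631 TPM.

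The mRNAs of the tristetraprolin paralogues themselves carry the letters their proteins bind. Each has exactly 1 full nonamer TTATTTATT in the 3′ UTR of its most abundant coding transcript, and among all 52 genes 8 (15.4%) have at least 1, against 6.69% of 9033 expressed protein-coding genes. The 8 windows are printed because they hold the complete element; each reads 5′ to 3′ on the RNA sense strand, with T for U and the nonamer in capitals.
Zfp36: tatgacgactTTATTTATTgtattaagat
Zfp36l1: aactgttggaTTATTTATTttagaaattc
Zfp36l2: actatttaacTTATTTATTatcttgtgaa
Rc3h1: actttactcaTTATTTATTgagatgagga
Rc3h2: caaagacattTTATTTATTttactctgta
Cnot6l: agggaagagaTTATTTATTtttgtttcct
Edc3: agcttctagcTTATTTATTggcttgcctt
Xrn1: actagaaaagTTATTTATTtgattaagcc

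On mm10 the Zfp36 window lies at chr7:28376951-28376979 on the minus strand, with its nonamer starting 589 bases after the stop codon. The Zfp36l1 window is at chr12:80108167-80108195 and the Zfp36l2 window at chr17:84184914-84184942, both on the minus strand. Rc3h1 (chr1:160970043-160970071, plus strand) and Rc3h2 (chr2:37373287-37373315, minus strand) encode the Roquins. Cnot6l (chr5:96071161-96071189, minus strand) encodes a catalytic deadenylase subunit. Edc3 (chr9:57750553-57750581, plus strand) encodes a decapping enhancer and Xrn1 (chr9:96055253-96055281, plus strand) the 5′ exonuclease. The flanks differ from gene to gene, and none of the windows crosses an intron.

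Shorter forms of the element were counted on the same strand, overlapping matches included, so that a nonamer also counts as the heptamer TATTTAT and the pentamer ATTTA. The heptamer was present in 20 genes (38.5%, against 26.7% of expressed genes) and the pentamer in 42 (80.8%, against 65.6%). By role the heptamer was found in 6 of 9 AU-rich element binders, 3 of 6 Regnase-Roquin genes, 7 of 17 deadenylases, 3 of 7 decapping factors, 1 of 5 exonucleases and 0 of 6 nonsense-mediated decay factors. The genes of this set have long 3′ UTRs (median 1259 bases, against 918), which raises the chance of a match. Among the 26 of them with 3′ UTRs of 562 to 2822 bases the heptamer share was 26.9%, against 30.4% of 4623 expressed genes of that length. The nonamer share in that range was 11.5%, against 7.22%, and the 3 genes behind it were Zfp36, Zfp36l1 and Zfp36l2. Summed over all lengths, the set had 0.0771 nonamers per 1000 bases, against 0.0625 in expressed genes. In the range of 562 to 2822 bases the median was 1.78 pentamers per 1000 bases, against 1.498. Over all lengths the median was 1.97, against 1.26 in expressed genes and 8.50 in 15 textbook target mRNAs of tristetraprolin, Regnase-1 or Roquin. Densities in that list ranged from 0 to 28.4 per 1000 bases. Targets of tristetraprolin are known by such elements, so the value of the list follows in part from its choice. Tnf alone held 5 overlapping nonamers in 764 bases, while Zfp36l1 and Rc3h2 had 4.90 and 4.84 pentamers per 1000 bases over 3′ UTRs of 1835 and 5160 bases. The highest densities of the set were those of Auh and Pabpc1, at 8.45 and 6.83 over 355 and 439 bases, without a nonamer. Edc3, which has a nonamer, had 0.25. A match of letters is a description and does not show that a protein binds there.

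**Figure D2:**
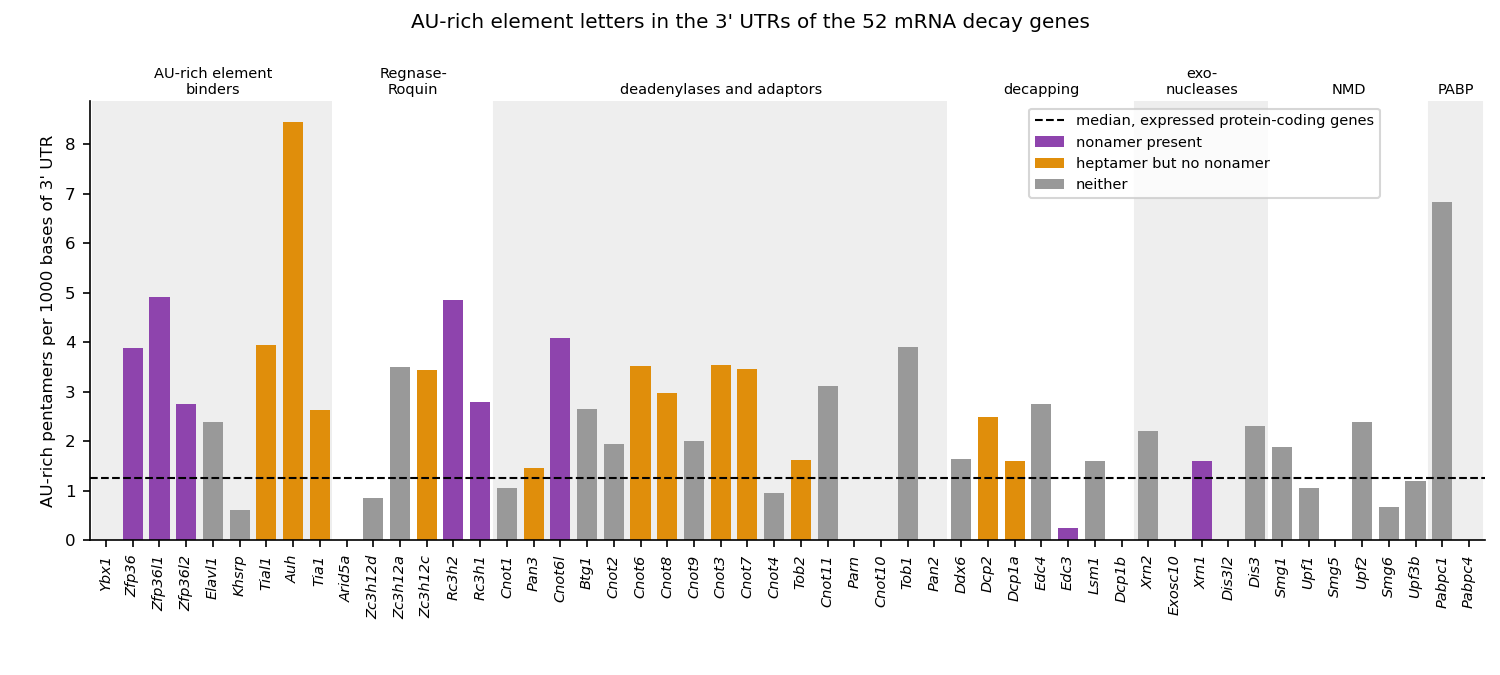
AU-rich pentamers per 1000 bases of 3′ UTR (bars from 0) in the leading coding transcript of each gene, ordered as in the plot of levels; bar shade separates genes with a nonamer, with a heptamer but no nonamer, and with neither. The dashed line is the median of expressed protein-coding genes, 1.26 per 1000 bases; the 8 genes with a nonamer include the 3 tristetraprolin paralogues and both Roquins.

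Within the Regnase-Roquin group, Arid5a and Zc3h12d had the highest levels over all transcripts. Arid5a, which protects inflammatory mRNAs from Regnase-1, had 20.9, 10.4 and 13.9 TPM in replicates 1, 2 and 3. Zc3h12d, a paralogue of Regnase-1, had 18.4, 11.8 and 13.0 TPM. Zc3h12a, which encodes the endonuclease Regnase-1, had 11.3, 6.05 and 6.70 TPM and was below Arid5a (1.87-fold) and Zc3h12d (1.83-fold) in every library. Over protein-coding class transcripts only, a choice made after the classes had been seen, Arid5a had 11.5, 5.84 and 7.11 TPM and Zc3h12a 11.0, 6.05 and 6.57, so that Arid5a was 1.03-fold higher and its order turned in replicate 2. Zc3h12c, a further paralogue, had 9.64, 5.89 and 4.91 TPM, so that Zc3h12a exceeded it by a log2 ratio of 0.24 ± 0.21, little more than the spread. Zc3h12b, the fourth gene of the family, had 0.0767 ± 0.0289 TPM. The Roquin genes were close to each other, Rc3h1 with 6.66, 4.80 and 4.06 TPM and Rc3h2 with 10.4, 5.46 and 4.33 TPM (log2 Rc3h1 over Rc3h2 -0.31 ± 0.30). All 6 genes had their highest TPM in replicate 1, and in each the TPM of replicates 2 and 3 lay nearer to each other than to it. On normalized log2 CPM replicate 1 was again highest in all 6, but the nearest libraries differed in Arid5a and Rc3h1. Replicate 3 of Arid5a (5.98, 5.20 and 5.70 in replicates 1, 2 and 3) lay nearest to replicate 1. So did replicate 2 of Rc3h1 (6.62, 6.46 and 6.29).

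Most CCR4-NOT subunits lay close to each other. The scaffold Cnot1 had 22.1, 16.5 and 16.6 TPM, and the other core and regulatory subunits Cnot2, Cnot3 and Cnot9 had means between 11.1 and 13.8 TPM. Among the catalytic subunits, the CCR4-type Cnot6l and Cnot6 had 16.0 ± 3.20 and 12.1 ± 2.29 TPM, and the CAF1-type Cnot8 and Cnot7 had 12.0 ± 0.835 and 9.76 ± 2.10 TPM. The Cnot6 to Cnot6l ratio was among the steadiest in the set, at a log2 of -0.40 ± 0.04, while Cnot7 over Cnot8 varied more (-0.31 ± 0.20). Cnot4, an associated ubiquitin ligase, had 9.62 ± 1.79 TPM, and the peripheral subunits Cnot11 and Cnot10 lay lower, at 4.43 ± 0.630 and 3.23 ± 0.526 TPM.

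The other tail-shortening enzyme was unbalanced between its subunits. Pan3, the adaptor that contacts poly(A)-binding protein, had 24.0, 13.3 and 12.1 TPM, and the nuclease Pan2 lay 14.4-fold, 15.2-fold and 14.6-fold lower in replicates 1, 2 and 3. The log2 ratio of TPM was -3.88 ± 0.04. On normalized counts, which ignore the length of the isoforms in use, Pan2 stood 0.68 and Pan3 0.35 above the other libraries in replicate 1 (log2), so this steadiness holds per length only; over protein-coding class transcripts the log2 ratio of TPM was -3.54 ± 0.34. Parn, a deadenylase that acts largely on noncoding RNAs, had 3.63 ± 0.196 TPM. Of the antiproliferative adaptors that bring CCR4-NOT to mRNAs, Btg1 had 14.5 ± 2.80 TPM, Tob2 6.36 ± 0.811 and Tob1 2.84 ± 0.488 TPM, with Tob2 above Tob1 in every library (2.25-fold).

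Decapping had the lowest median, with Ddx6 and Dcp2 well above the other 5 genes. The helicase Ddx6, which joins deadenylation to decapping, had 39.9, 31.8 and 28.2 TPM. The catalytic subunit Dcp2 had 21.1, 13.1 and 14.0 TPM. The activators lay several-fold lower: Dcp1a at 5.02 ± 0.667, Edc4 at 4.52 ± 0.624, Edc3 at 2.63 ± 0.386, Lsm1 at 2.44 ± 0.304 and Dcp1b at 2.25 ± 0.322 TPM. Dcp1a was 2.23-fold above its paralogue Dcp1b, and that log2 ratio, 1.16 ± 0.06, also varied little.

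Among the exonucleases the nuclear enzyme exceeded its cytoplasmic paralogue. Xrn2, which acts in transcription termination, had 31.2, 19.6 and 23.0 TPM. Xrn1 had 14.9, 7.57 and 7.37 TPM and was 2.57-fold below it, lower in 3 of 3 libraries. Exosc10, an exosome nuclease, had 12.3 ± 0.455 TPM. Dis3l2, which degrades uridylated RNA, was 2.56-fold above Dis3, the exosome's catalytic subunit, with 4.17 ± 0.912 against 1.62 ± 0.265 TPM.

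Of the nonsense-mediated decay factors, the kinase Smg1 had 21.4, 11.0 and 12.6 TPM and the helicase Upf1 had 13.9, 10.8 and 12.4 TPM. Smg5, an adaptor that recruits deadenylation, was 3.01-fold above the endonuclease Smg6, with 8.31 ± 2.07 against 2.72 ± 0.269 TPM. Upf2 had 6.57 ± 1.25 TPM. Upf3b, its link to the exon junction complex, had 2.42 ± 0.400 TPM, below its paralogue Upf3a by 2.41-fold. Of the poly(A)-binding proteins, Pabpc1 had 209, 217 and 198 TPM and was 91.4-fold, 46.9-fold and 60.3-fold above Pabpc4, which had 2.29, 4.63 and 3.28 TPM. Genes for a pair of small nucleolar RNAs, Gm25788 and Gm22154, lie within Pabpc4 on the same strand.

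**Figure D3:**
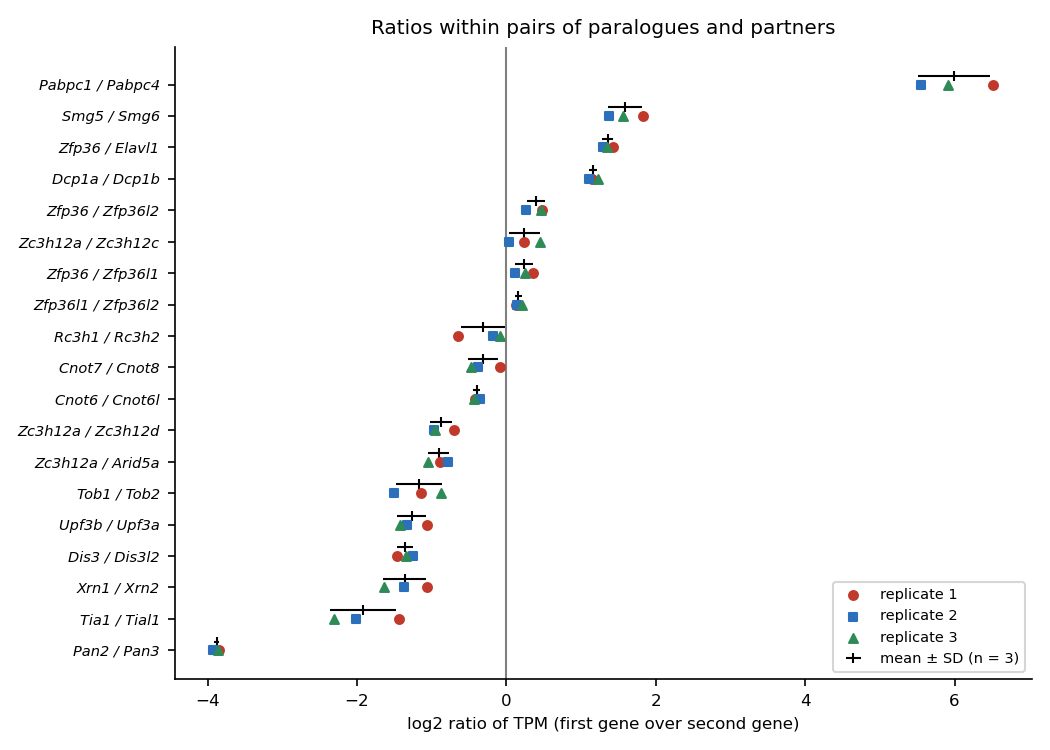
Log2 ratio of TPM, first gene over second, for 19 pairs of paralogues and partners; symbols are libraries and black ticks with bars are mean ± SD (n = 3). Pabpc1 over Pabpc4 (5.99 ± 0.49) and Pan2 over Pan3 (-3.88 ± 0.04) are the extremes, and in all 19 pairs the same gene is higher in every library.

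In all 19 pairs the same gene was higher in every library. In 16 pairs the mean log2 ratio exceeded 2 times its SD, and the exceptions were Rc3h1 with Rc3h2, Zc3h12a with Zc3h12c, and Cnot7 with Cnot8. The second deposited transcript table gave the same direction in every library in 17 pairs and the same sign of the mean in all 19; the exceptions were Zfp36 with Zfp36l1 (log2 0.07 ± 0.12 there) and Rc3h1 with Rc3h2 (-0.13 ± 0.31). With protein-coding class transcripts only, 18 pairs kept their direction in every library, all but Zc3h12a with Arid5a. Tial1 was then 5.77-fold above Tia1 and Dis3l2 5.78-fold above Dis3.

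The genes of the decay machinery also produced transcripts that the annotation assigns to nonsense-mediated decay. Such transcripts took over 10% of the gene's output in every library in 5 of 52 genes: Dis3, Edc3, Arid5a, Cnot1 and Cnot2. That is 9.62% of the set, against 6.63% of expressed protein-coding genes. Among genes with annotated transcripts of the class it is 5 of 23, beside 604 of 2837 expressed protein-coding genes. By library, 7 of the 52 genes passed 10% in replicate 1 (background 8.25%), 8 in replicate 2 (8.2%) and 8 in replicate 3 (8.1%). In Arid5a the transcript Arid5a-205 of this class was the most abundant transcript of the gene, with 35.8%, 42.3% and 47.3% in replicates 1, 2 and 3, and it led in the second deposited table as well. The share of Edc3-202 was 48.0%, 41.9% and 35.9%, below that of the full-length Edc3-201 in every library. Dis3-205 took 33.95%, 53.6% and 30.8%, and it exceeded the full-length Dis3-201 in replicates 1 and 2 but not in replicate 3. The second table differed in replicate 3. There all Dis3 transcripts of this class took 38.0%, 81.4% and 71.7%, against 15.5%, 17.3% and 27.7% for its protein-coding class. Arid5a had its largest share of the class in replicate 3 and Edc3 in replicate 1, so these shares did not move together between libraries.

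Each of these transcripts lacks exon sequence of the gene's coding transcript with the highest mean TPM, and its annotated reading frame ends early. The ends of the 3 shortened frames are printed to show where translation would stop: the last 30 bases of the annotated reading frame, 5′ to 3′, with the stop codon in capitals.
Arid5a-205: tggagaagctgggggcctatgagctggTGA
Dis3-205: cttctcttacgtacgcggaagcacagaTGA
Edc3-202: gtaccagaagtcacctttcgggtcatcTAG

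Arid5a-205 lacks segments of 95 and 121 bases that Arid5a-201 has (chr1:36311874-36311968 and chr1:36317204-36317324, mm10, plus strand). Its frame is 177 coding bases long, against 1857 in Arid5a-201, and its stop lies 260 bases before the last exon junction. Dis3-205 lacks 85 bases (chr14:99085874-99085958, minus strand), which leaves 1698 coding bases of 2874 and a stop 1007 bases before the last junction. Edc3-202 lacks 320 bases (chr9:57715948-57716267, plus strand), which leaves 171 coding bases of 1524 and a stop 698 bases before the last junction. The windows of Arid5a-205 and Edc3-202 cross an exon junction, and that of Dis3-205 lies within an exon at chr14:99084124-99084153. On the opposite strand, Edc3 is overlapped by Clk3 (12.4 TPM against 2.63 for Edc3) and Dis3 by Pibf1 (2.97 against 1.62 TPM). Use of strand in the counting: not given in the sources used here. The part of these neighbours in the shares was not tested. In all, 9 genes of the set are overlapped by an opposite-strand gene of at least 1 TPM.

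The other shares of this class were smaller or less steady. Cnot1 had 12.3%, 15.6% and 13.7%, and Cnot2 had 14.3%, 13.3% and 13.5%. For Cnot1 the 2 deposited tables gave 11.1% and 0% to the same transcript, Cnot1-212, which shows how far the assignment among overlapping isoforms depends on the estimator. Smg6, itself the endonuclease of the pathway, had 4.28%, 23.6% and 21.8% by the main table and at most 3.69% by the second. Tial1 had 9.36%, 19.8% and 20.2%, with replicate 1 lowest in both tables.

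Transcripts annotated as retaining an intron behaved differently, with replicate 1 set apart. They took over 10% of output in 15 of 52 genes (28.8%) in replicate 1, against 19.9% of expressed protein-coding genes, in 3 in replicate 2 (background 8.94%) and in 4 in replicate 3 (background 8.59%). In Tia1 the share was 45.9%, 6.46% and 16.1% in replicates 1, 2 and 3. In Pan3 it was 39.7%, 2.64% and 7.32%, and in Dis3 25.9%, 0.330% and 0.360%. Replicate 1 had the highest share in 32 of the 37 genes with such transcripts (86.5%), beside 82.7% of the expressed protein-coding genes that have them (52.1% of all expressed protein-coding genes). Replicate 1 is the library with the higher nuclear RNAs, and their part in this result was not tested. In 2 genes the share exceeded 10% in every library, beside 7.19% of expressed protein-coding genes: Elavl1, with 17.0%, 19.4% and 20.3%, almost all of it the short transcript Elavl1-203, and Cnot3, with 25.6%, 34.7% and 26.0%. In neither was replicate 1 highest. The leading transcript was the same in every library in 49 genes, and Tia1, Pan3 and Dis3 were the exceptions.

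**Figure D4:**
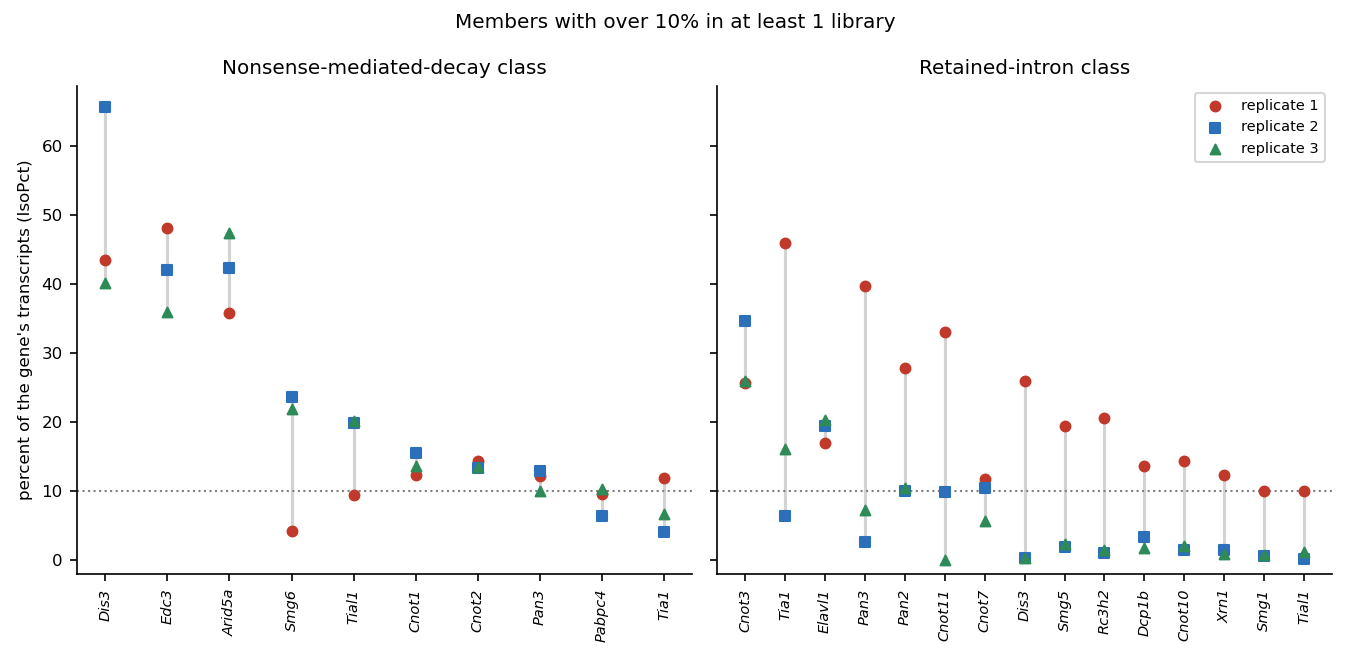
Share of a gene's transcripts (percent) assigned to the nonsense-mediated-decay class (left) and the retained-intron class (right), for genes with over 10% in at least 1 library; symbols are libraries, grey lines join the lowest and highest, and the dotted line marks 10%. On the left Dis3, Edc3 and Arid5a stand above 30% in every library, and on the right replicate 1 is highest in all genes shown except Cnot3 and Elavl1.

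Between libraries, 40 of the 52 genes varied beyond counting error by a chi-square test of normalized counts with Benjamini-Hochberg adjustment, which is 76.9% of the set beside 71.5% of all 12515 genes tested. Among protein-coding genes of at least 1 TPM in every library, 7086 of the 9106 tested varied. Without replicate 1 the count in the set was 23, beside 40.4% of genes tested. The 12 that did not pass were Zfp36l1, Zfp36l2, Auh, Cnot2, Cnot8, Cnot11, Parn, Edc3, Edc4, Lsm1, Dis3 and Smg6. All 6 Regnase-Roquin genes passed, as did 13 of 17 deadenylases and 5 of 6 nonsense-mediated decay factors. A biological coefficient of variation estimates the spread between libraries beyond counting error, here shrunk toward the trend of all genes. Its median was 0.140 over the set, against 0.172 over all genes tested and 0.150 over expressed protein-coding genes. The coefficient was smallest in Cnot2 (0.113) and largest in Pan2 (0.259) and Pabpc4 (0.258), both among the low genes. Cnot2 did not pass the chi-square test, so its value does not show spread beyond counting error. The Regnase-Roquin group had a median of 0.187 and the deadenylases 0.125. These p-values and spreads measure the difference between these libraries, since nothing states that separate animals gave them.

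Replicate 1 accounted for most of the larger departures. Relative to the mean log2 CPM of the other libraries, 3 genes were over 1.5-fold higher in it, beside 11.3% of genes tested, namely Tia1 (1.61-fold), Pan2 (1.60-fold) and Rc3h2 (1.52-fold). Pabpc4 and Ybx1 were over 1.5-fold lower, beside 5.27%, with log2 differences of -0.83 and -0.59. In replicate 2 Pabpc4 was over 1.5-fold higher (background 4.22%) and Arid5a lower (background 6.93%), and replicate 3 had 0 genes in either direction (backgrounds 1.63% and 5.63%). Smaller shifts were more widespread: 35 of the 52 genes had their highest normalized value in replicate 1, beside 39.8% of genes tested, 9 in replicate 2 (32.6%) and 8 in replicate 3 (27.7%). In replicate 1 they had a median log2 difference of 0.12 against -0.01 over all genes tested. All 6 Regnase-Roquin genes were among the 35, with log2 differences from 0.24 to 0.60. The nuclear RNAs that stand high in the same library are given above, and their part in these shifts was not tested.

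Counting only transcripts of the protein-coding class, a choice made after the transcript classes had been seen, moved some of these values and left others nearly where they were. Tia1 went from a log2 difference of 0.69 to -0.31 and Pan3 from 0.35 to -0.21. Pan2 went from 0.68 to 0.37, and no gene remained over 1.5-fold higher. Of the Regnase-Roquin genes, Zc3h12a had 0.53 beside 0.54, Zc3h12c 0.58 in both, Rc3h2 0.52 beside 0.60 and Arid5a 0.42 beside 0.53, the largest move of the 6. In all, 12 of the 52 genes were lower by over 0.1 and 1 was higher. Xrn1 likewise had 0.44 beside 0.51, and Ybx1 and Pabpc4 remained over 1.5-fold lower. Over the set the median went from 0.12 to 0.04, and over expressed protein-coding genes from -0.04 to -0.08.

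**Figure D5:**
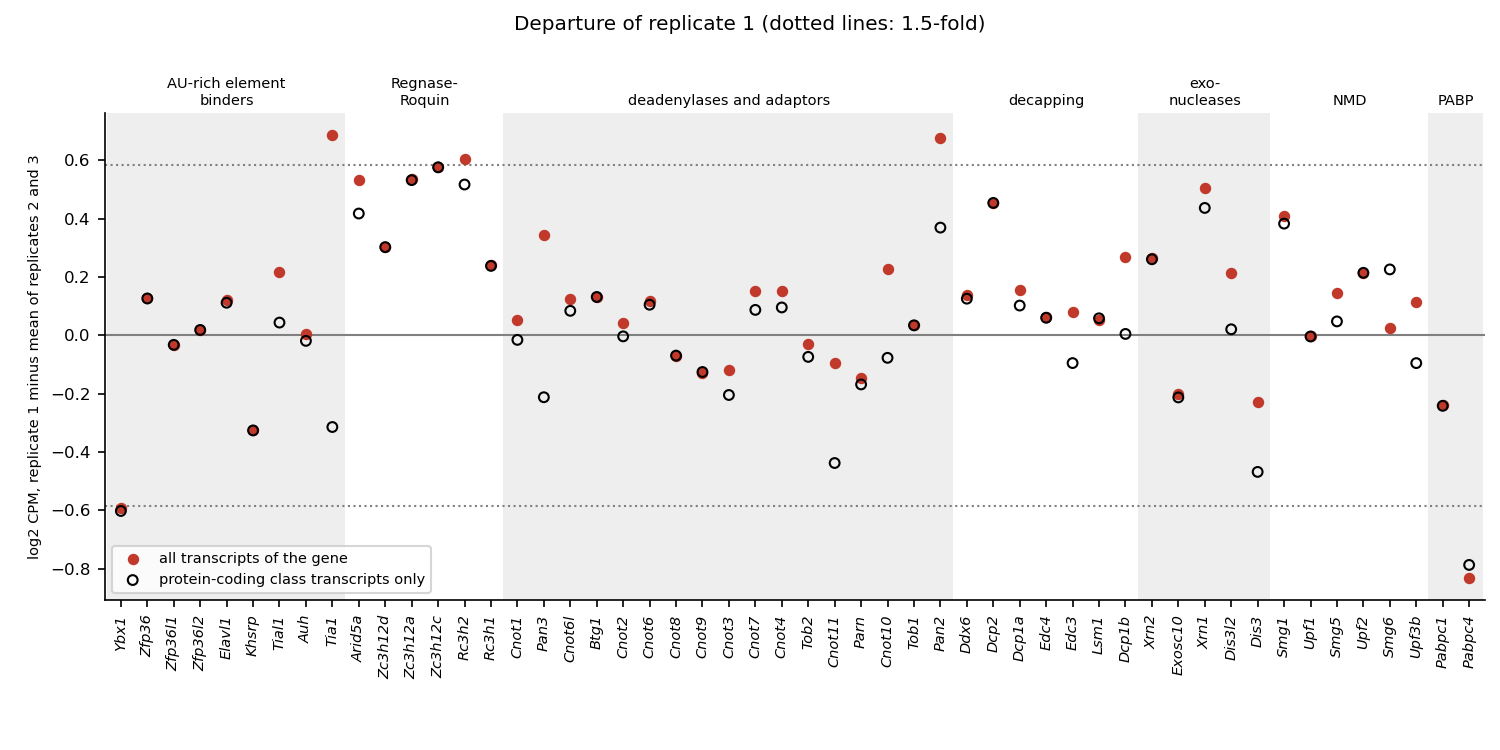
Log2 CPM of replicate 1 minus the mean of replicates 2 and 3 for each gene, from all its transcripts (filled) and from protein-coding class transcripts only (open); dotted lines mark 1.5-fold. The open circles of Tia1 and Pan3 fall below 0, and those of the Regnase-Roquin genes lie between 0.24 and 0.58. Zc3h12c and Zc3h12d have protein-coding class transcripts only, so their symbols coincide.

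Other genes of the same pathways were present at similar levels. All 15 listed exosome and Ski complex genes, all 11 further nonsense-mediated decay and exon junction genes and all 10 genes of small RNA-guided and m6A-guided decay reached 1 TPM in every library, with medians of 6.37, 11.5 and 8.18 TPM. Of 15 further decapping and LSm genes 14 did, led by Lsm14a at 34.1 ± 5.60 TPM, and the exception was Patl2 at 0.180 ± 0.0557 TPM. Of 13 further deadenylation and poly(A) genes 10 did, led by Tent2, a poly(A) polymerase, at 29.3 ± 9.97 TPM, and Btg4, known from oocytes, had 0 counts. Of 17 further binders 11 did, led by Pcbp2 at 180.2 ± 24.8 TPM, while Elavl2, Elavl3 and Zfp36l3 had 0 counts in every library. By the chi-square test 8 of 15 exosome and Ski genes, 8 of 12 deadenylation genes, 8 of 15 decapping genes, 8 of 11 nonsense-mediated decay genes 9 of 10 guided-decay genes and 11 of 12 further binders varied between libraries, beside the same 71.5%. Among 15 textbook targets of tristetraprolin, Regnase-1 or Roquin, 8 reached 1 TPM in every library. Tnf had 90.9, 49.6 and 44.7 TPM, so it was above Zfp36 in every library and highest in replicate 1, and 5 of the 12 targets tested were over 1.5-fold higher in that library, beside 11.3% of all genes tested, and 1 (Cxcl1, named after its values were seen) was over 1.5-fold lower, beside 5.27%.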

How the data were processed

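The authors deposited expected counts and TPM per gene and per transcript, made on mm10 with GENCODE M21 per the notes deposited with the files, and for each transcript its percent of the gene's output (IsoPct), named so per the file headers. The deposited posterior standard deviation of each count, another column of the same gene tables, was used only to check assignment: 12 of the 52 genes had fractional counts, and it passed 1% of the count only in Edc3 (1.00%). A second deposited transcript table holds estimated counts and TPM on a different scale, so it was compared by ratios or after rescaling. Versions and strand setting: not given in the sources used here.

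The members, roles, gene pairs and lists of other genes were chosen with earlier results of these data known. Expected counts were rounded for edgeR 4.0.16 in R 4.3.3, which filtered genes (12515 left), gave TMM factors and fitted an intercept-only dispersion. A chi-square test per gene compared normalized counts between libraries at an adjusted p of 0.05. It was tried on simulated counts with counting error only, apart from chosen genes raised in a single library. The spread between the real libraries was not simulated. Log2 CPM used a prior count of 2. DESeq2 1.42.0 size factors served as an alternative. Entries naming no gene held 0.435%, 0.134% and 0.0823% of counts and were left out of tests. Detection meant 1 TPM in every library. Elements were searched in the annotated 3′ UTR of the protein-coding class transcript with the highest mean TPM among those with an annotated stop codon; sequences come from the GENCODE transcripts. All 52 members, the 3 highest and 2 lowest genes of each other list, the genes of the pairs and the check lists may be named; Tnf is among the 3 highest targets. One list of other genes is not reported here.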

Additional observations from a re-analysis of the deposited data

How the results depend on the processing

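No paired analysis was possible because all libraries belong to a single group. Leaving out a library in turn gave a median level of 8.59 to 10.9 TPM and 51 genes of at least 1 TPM each time, 23 to 38 genes varying beyond counting error, a median coefficient of variation of 0.0906 to 0.184, all 19 pairs in the same direction, 5 to 7 genes with over 10% nonsense-mediated-decay class transcripts and 2 to 4 with over 10% retained-intron transcripts. Replicate 1 carried most of the variation: without it the coefficient was 0.0906 (0.105 over all genes), beside 0.140. The median level of 9.86 TPM was 5.30 TPM in the second table, 32.4 TPM when only nuclear protein-coding genes were scaled to the fixed total, and 36.6 TPM for the second table so scaled (the last chosen after seeing the data), which changes units rather than order: Spearman's rho of the 52 means between tables was 0.995 across genes, which are not independent, and all 52 lay within 1.5-fold. At 5 TPM, 33 genes were detected. At 1 TPM, 41 were detected in the second table as deposited and 52 after it was rescaled to nuclear protein-coding genes. At 2-fold, 0 genes departed in any library in either direction. With protein-coding class transcripts only, 0 genes were higher in replicate 1, 0 lower in replicate 2 and 1 (Dis3) higher in replicate 3, and Tia1 reversed in replicate 1 to -0.31; 18 of 19 pairs kept their direction in every library. Plain library sizes and the second table each left 2 genes higher in replicate 1, without Rc3h2. The other settings for variation gave 37 to 41 genes. Depth limits the low genes most, Pan2 and Dis3 among them.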
